A study of Mus musculus with 6 samples.

Results

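mmu-miR-103-3p and mmu-miR-107-3p are the 2 guide strands cut from hairpins that lie inside introns of the pantothenate kinase (Pank) genes. They were taken by name from the 1034 distinct mature miRNAs of the deposited table. Small RNA had been sequenced from nephron progenitor cells of CD1 mice at the embryonic stage E14.5 (3 libraries) and on the day of birth (P0, 3 libraries). No genotype or drug treatment is named for either stage. Each library came from pooled kidneys of a single litter, so a replicate is a litter pool and not an animal, and progenitors were captured on beads coated with an antibody to the integrin Itga8. The table holds miRNAs only, so the progenitor label could not be checked against the mRNA of Six2 or other defining genes. Values of a stage are listed in the order of its replicates 1, 2 and 3 throughout.

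miRNAs are short RNAs that guide Argonaute proteins to matching sites in messenger RNAs, and bases 2 to 8 of the miRNA, the seed, do most of the pairing. Each hairpin gives a 5p and a 3p arm. One arm, the guide, is usually kept in Argonaute, and the other, the passenger, is mostly degraded. miR-103 and miR-107 are known for repressing Dicer1, the enzyme that makes mature miRNAs, and for lowering insulin sensitivity in liver and fat through Caveolin-1. Their host genes encode the kinases that start coenzyme A synthesis.

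The mature sequences are shown because the members differ by a single base outside the seed, which bears on how reads were divided between them. Seeds are in capitals, sequences are written 5′ to 3′ and come from RefSeq (GRCm38.p6), and positions are counted from 1 at the 5′ end.
mmu-miR-103-3p: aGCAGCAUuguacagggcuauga
mmu-miR-107-3p: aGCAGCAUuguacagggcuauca
mmu-miR-103-2-5p: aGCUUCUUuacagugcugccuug
mmu-miR-103-1-5p: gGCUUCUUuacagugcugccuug
mmu-miR-107-5p: aGCUUCUUuacaguguugccuug
mmu-miR-16-5p: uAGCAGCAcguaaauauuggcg
The 3p members are 23 bases long and differ by G22C, with the base of miR-103-3p given first. Of the 885 miRNAs of the table that had a RefSeq mature sequence, 2 carried this seed, and they were these 2 members. The 5p arm of Mir103-2 differs from that of Mir107 by C16U and from that of Mir103-1 by A1G. miR-16-5p is shown because it carries the same 6 bases, AGCAGC, moved along by 1 base. In miR-103-3p and miR-107-3p these bases start at base 1, and in 7 other miRNAs of the table, among them miR-16-5p, miR-15b-5p and miR-322-5p, they start at base 2.

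The hairpins are shown because miR-103-3p comes from a pair of genes whose mature 3p sequences are identical, so that only the flanks tell the copies apart. The annotated 5p and 3p arms are in capitals.
Mir103-1: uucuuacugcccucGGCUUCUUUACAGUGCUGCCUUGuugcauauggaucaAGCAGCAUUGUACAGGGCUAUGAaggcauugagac
Mir103-2: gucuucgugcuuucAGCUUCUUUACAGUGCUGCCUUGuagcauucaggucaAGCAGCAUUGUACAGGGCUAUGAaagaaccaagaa
Mir107: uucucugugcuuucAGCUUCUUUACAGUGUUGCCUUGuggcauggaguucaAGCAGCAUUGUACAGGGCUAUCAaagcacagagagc
Positions are in build GRCm38. Mir103-1 lies on the plus strand of chromosome 11 (35782396 to 35782481) in intron 5 of the 6 introns of Pank3. Mir103-2 lies on the plus strand of chromosome 2 (131288052 to 131288137) in intron 5 of 6 of Pank2. Mir107 lies on the minus strand of chromosome 19 (34820687 to 34820773) in intron 5 of 6 of Pank1. All 3 hairpins are on the strand of their host gene, by the GENCODE M21 annotation. The mature 3p sequences span 131288103 to 131288125 on chromosome 2, 35782447 to 35782469 on chromosome 11 and 34820700 to 34820722 on chromosome 19.

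Recovered reads ranged from 2649506 to 34934526 per library, and E14.5 replicates 1 and 3 held the fewest. P0 replicate 1 stood apart from the other P0 libraries. On a principal component that took 74.8% of the variance it scored 1.14, against 33.2 and 33.5 for the other P0 libraries and −26.2 to −16.2 for the E14.5 libraries. The results for the members and the counts for the lists are therefore given with and without it. Summed levels in TPM, a length-scaled share of each library, of endothelial marker miRNAs were 26608 to 44921 at E14.5 and 5634 to 8158 at P0. Those of epithelial markers were 4122 to 23183 and 500.2 to 1542, those of stromal or smooth muscle markers 21326 to 33937 and 7443 to 14270, and those of neural markers 1016 to 2008 and 160 to 720. Those of leukocyte markers were 632 to 1202 and 454 to 629, and those of erythroid markers 242 to 417 and 127 to 189. In TPM, 2 of 2 endothelial, 5 of 5 epithelial, 2 of 4 stromal, 1 of 2 tested neural, 1 of 4 erythroid and 0 of 4 leukocyte markers were called lower at P0 by limma (adjusted p under 0.05), beside 32.8% of all 670 tested miRNAs. These counts without P0 replicate 1 were 2, 5, 4, 2, 2 and 2, beside 358 of the 670. After the median-of-ratios scaling described with the tests, 1 endothelial and 3 epithelial markers were called lower, 1 leukocyte marker higher, and 0 stromal, neural or erythroid markers in either direction, beside 38 higher and 35 lower of the 670. With P0 replicate 1 left out of that fit, 1 endothelial, 3 epithelial, 2 stromal, 1 neural and 2 erythroid markers were called lower and 1 erythroid and 1 leukocyte marker higher, beside 150 higher and 174 lower of the 670. With any 1 of the other libraries left out, 0 markers were called under that scaling, except 2 epithelial markers lower without E14.5 replicate 2, beside 0 to 7 of the 670. In TPM, 2 endothelial, 3 to 5 epithelial, 1 or 2 stromal, 0 or 1 neural, 1 erythroid and 0 leukocyte markers were then called lower, beside 65 to 152 of the 670. The neural marker miR-124-3p was at 0 in 4 of the 6 libraries. The part of these marker differences in the values of miR-103 and miR-107 was not tested, and in such bulk libraries fewer cells of a type and less RNA per cell cannot be told apart.

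miR-103-3p was the more abundant member in every library. By the row of the Mir103-2 position, which held more reads and was used throughout, the E14.5 litters gave 3512, 5126 and 3287 TPM, and the P0 litters gave 3637, 1523 and 1763 TPM. P0 replicate 1 lay inside the E14.5 range, while P0 replicates 2 and 3 were at 38.3% and 44.4% of the E14.5 mean. Its rank among all 1034 miRNAs ran from 34 to 52 over the 6 libraries. The mean level was 3975 ± 1003 TPM before birth and 2308 ± 1158 TPM at P0 (SD, n = 3 each).

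For miR-107-3p the E14.5 litters gave 661, 733 and 443 TPM, and the P0 litters gave 502.8, 128 and 131 TPM. P0 replicate 1 again lay inside the E14.5 range, and P0 replicates 2 and 3 were at 20.96% and 21.33% of the E14.5 mean. It ranked from 95 to 140 among all miRNAs. The mean level was 612 ± 151 TPM before birth and 254 ± 216 TPM at P0 (SD, n = 3 each). The stages thus overlapped for both members, whereas 46.4% of the 670 tested miRNAs were lower at P0 without overlap.

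**Figure D1:**
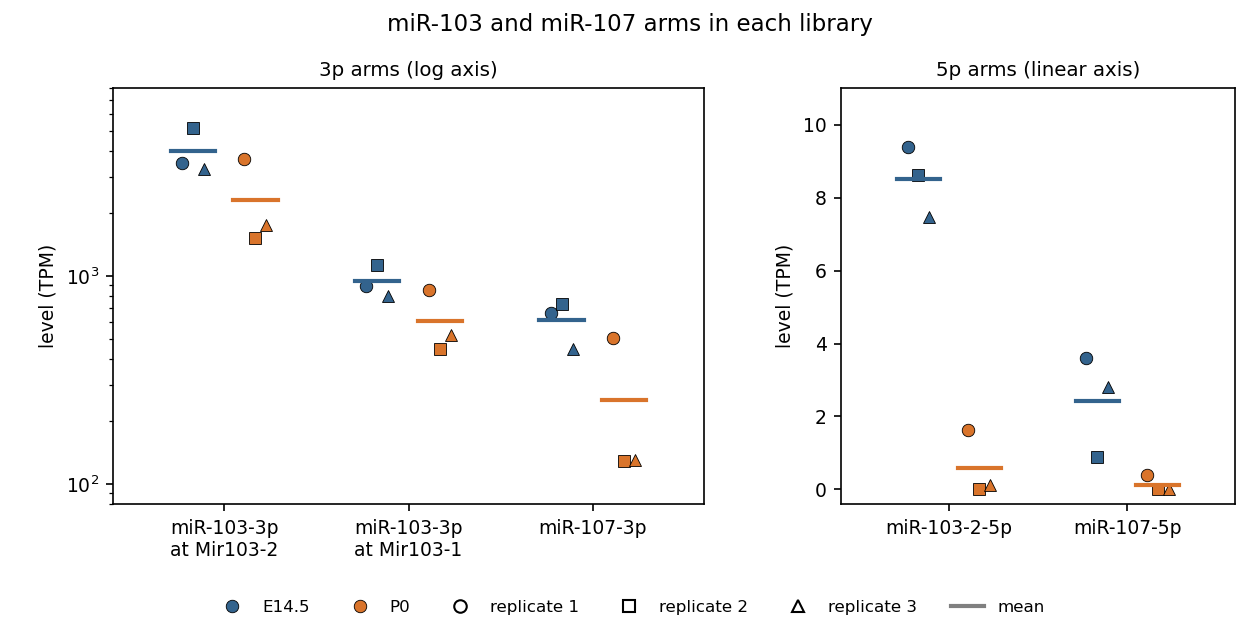
Level in TPM of each 3p arm (left, log axis, the 2 genomic rows of miR-103-3p shown apart) and of each 5p arm (right, linear axis) in the 6 libraries, with the mean of each stage as a line. P0 replicate 1 lies inside the E14.5 range for the 3p arms, and all P0 values of miR-103-2-5p lie below the lowest E14.5 value of 7.48.

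Neither member passed the threshold of an adjusted p-value under 0.05 when all 6 libraries were fitted. The log2 fold change of miR-103-3p, P0 over E14.5 on the log2(TPM + 1) scale, was −0.87 (SE 0.50, 95% interval −1.95 to 0.22, limma adjusted p = 0.178). That of miR-107-3p was −1.55 (SE 0.62, 95% interval −2.90 to −0.20, limma adjusted p = 0.0681). So 0 of the 2 members were called lower, against 32.8% of the 670 tested miRNAs (220 called lower). Of the 2, miR-107-3p alone was under 0.05 before adjustment, beside 328 of the 670. limma-voom on the recovered reads with library totals called 0 of 2 as well, beside 182 of the 670. The tested miRNAs had a median of −1.20, and 408 of the 670 had a lower value than miR-103-3p and 244 a lower value than miR-107-3p. The members therefore lay on either side of the middle of the distribution.

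Without P0 replicate 1 both members were called lower. The log2 fold change was then −1.25 for miR-103-3p (SE 0.29, limma adjusted p = 0.00311) and −2.20 for miR-107-3p (SE 0.33, limma adjusted p = 0.000202). In that fit 410 of the 670 miRNAs were called, 358 of them lower, and their median was −1.42, so miR-103-3p was still above the middle and miR-107-3p below it.

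The direction for miR-103-3p depended on how libraries were scaled. Median-of-ratios scaling, which sets the typical miRNA present in all libraries equal between them, moved the median of all tested miRNAs to −0.17. The scaled levels of miR-103-3p were 2316, 3490 and 1903 at E14.5 and 4117, 2931 and 3114 at P0. Its log2 fold change was then 0.43 (95% interval −0.50 to 1.36, limma adjusted p = 0.488). The scaled levels of miR-107-3p were 436, 499 and 257 at E14.5 and 569, 247 and 231 at P0, with a log2 fold change of −0.26 (95% interval −1.38 to 0.86, limma adjusted p = 0.741). Again 0 of 2 members were called, against 10.9% of the 670 miRNAs (73 called in either direction). Without P0 replicate 1 the value under this scaling was 0.28 for miR-103-3p (adjusted p = 0.470 by limma) and −0.68 for miR-107-3p (adjusted p = 0.134). Then 0 of 2 were called beside 324 of the 670, whereas leaving out any 1 of the other libraries left 0 to 7 of the 670 called. Both intervals hold higher as well as lower levels at P0 and do not show that the levels were equal.

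**Figure D2:**
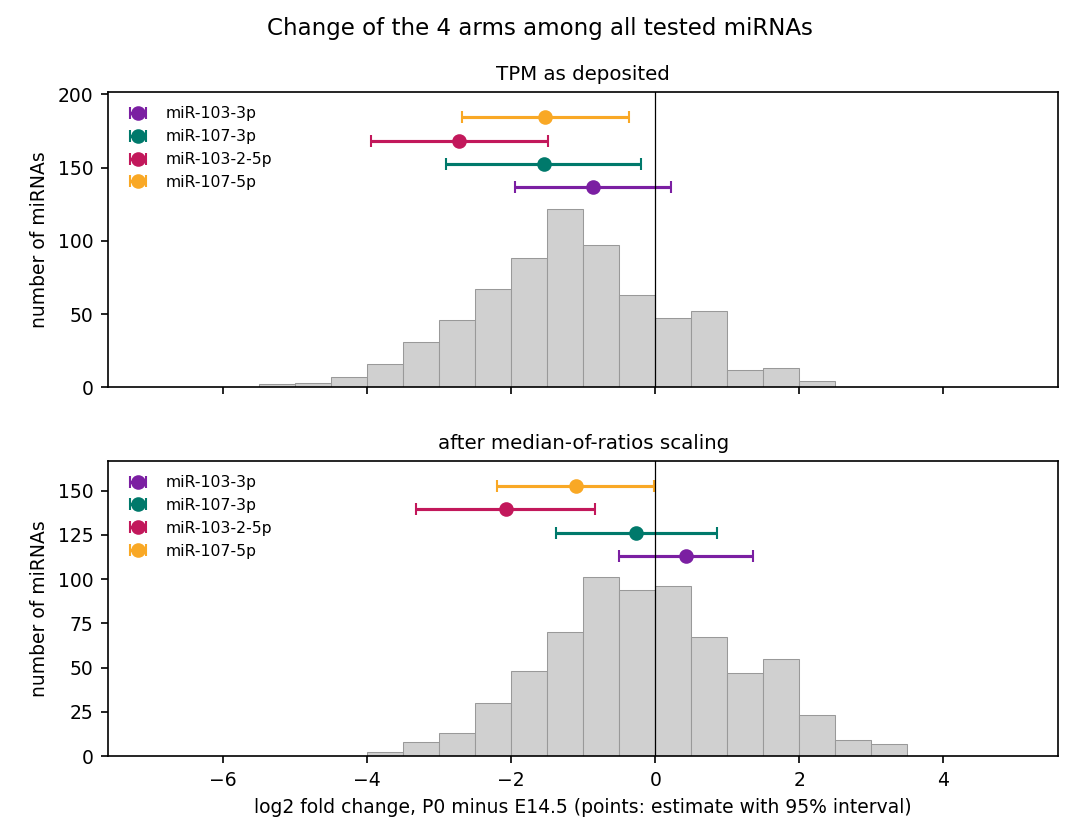
Distribution of the log2 fold change (P0 minus E14.5) of the 670 tested miRNAs in TPM (top) and after median-of-ratios scaling (bottom), as bars of 0.5 log2 units, with the estimate and 95% interval of each miR-103 and miR-107 arm above. miR-103-3p moves from −0.87 to 0.43 between the scalings, and miR-103-2-5p lies to the left in both.

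In the authors' deposited table, which does not name its model, miR-103-3p at Mir103-2 had a log2 fold change of 0.11 (SE 0.57, adjusted p = 0.916 as deposited). miR-107-3p had −0.69 (SE 0.60, adjusted p = 0.449) in the authors' deposited table. Neither was called there, against 10.4% of its 1034 miRNAs (1 row each).

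The balance between the members does not depend on the scaling of a library. Against the Mir103-2 row alone, miR-107-3p made up 15.8% of the reads of both in E14.5 replicate 1 (95% Wilson interval 15.2 to 16.5), 12.5% in replicate 2 (12.3 to 12.7) and 11.9% in replicate 3 (11.4 to 12.3). At P0 the share was 12.1% in replicate 1 (11.98 to 12.31), 7.77% in replicate 2 (7.51 to 8.04) and 6.90% in replicate 3 (6.66 to 7.14). P0 replicate 1 lay within the E14.5 values, and the other P0 libraries were below all of them by more than counting error. The members differ only at base 22 of 23, and how reads ending before it were assigned is not given in the sources used here. The mean share was 13.4% ± 2.13 before birth and 8.94% ± 2.81 at P0 (SD, n = 3 each). The log2 ratio of miR-107-3p to miR-103-3p differed by −0.69 (exact two-sided permutation test p = 0.2, adjusted over the 4 such tests 0.267). With 3 libraries against 3 this test cannot go below 0.1. Without P0 replicate 1 the difference in the log2 ratio was −0.95, with an exact two-sided permutation p = 0.2, the smallest that 2 against 3 libraries allow. Counting both genomic rows of miR-103-3p, the share of miR-107-3p was 13.04%, 10.49% and 9.79% at E14.5 and 10.1%, 6.12% and 5.42% at P0, and the log2 ratio differed by −0.72.

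The sum of miR-107-3p and the Mir103-2 row of miR-103-3p came to 4173, 5858 and 3730 TPM for the E14.5 litters and 4140, 1651 and 1894 TPM for the P0 litters, so that the stages overlapped. With the Mir103-1 row, which carries the same sequence and seed, the sum was 5070, 6987 and 4528 TPM for the E14.5 litters and 4997, 2097 and 2411 TPM for the P0 litters, again with overlap. The log2 of the first sum differed by −0.94 between stages (exact two-sided permutation test p = 0.2, adjusted 0.267). After median-of-ratios scaling it differed by 0.36 (exact two-sided permutation p = 0.4).

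The pair of genomic rows of miR-103-3p did not hold equal values. The Mir103-1 row held 897, 1128 and 798 TPM for the E14.5 litters and 857, 445 and 517 TPM for the P0 litters, which overlap. Scaled by median of ratios it held 591, 768 and 462 against 970, 857 and 913, higher at P0 without overlap. This was not tested, and the share of all miRNAs that did likewise under this scaling is not given here. Its share of the reads of both rows was 20.3%, 18.0% and 19.5% at E14.5 and 19.1%, 22.6% and 22.7% at P0, and the rest was given to Mir103-2. Of the 44 miRNA names with 2 rows, 29 had under 55% of their reads in the larger row, and miR-103-3p was the eighth most uneven. The mature sequences are identical, and how the reads were divided, by read ends or by the counting, is not given in the sources used here. The division therefore cannot be taken as a measure of transcription from Pank2 against Pank3. In the authors' deposited table the Mir103-1 row had a log2 fold change of 0.39 (SE 0.57, adjusted p = 0.663).

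The 5p arms, the passengers, were scarce, and both were called lower at P0 in TPM, as were 32.8% of the 670 tested miRNAs. Neither arm overlapped between stages, and 46.4% of the 670 were likewise lower at P0 without overlap. miR-103-2-5p had 26, 213 and 40 reads at E14.5, or 9.40, 8.63 and 7.48 TPM. It had 59, 0 and 3 reads at P0, or 1.62, 0 and 0.133 TPM. The stages did not overlap, although P0 replicate 1 was sequenced more deeply than any E14.5 library. A count of 0 in P0 replicate 2 allows up to 3 reads, or 0.129 TPM. In TPM it fell by 2.72 on the log2 scale (SE 0.57, adjusted p = 0.00605 by limma), and median-of-ratios scaling gave −2.08 (SE 0.56, adjusted p = 0.0459 by limma). Both values depend on the pseudocount of 1 and understate the change of so scarce an arm, since P0 replicate 2 is at 0. With a pseudocount of 0.1 the TPM value was −4.64, and limma-voom on the recovered reads with library totals gave −5.32. In the authors' deposited table it had −4.77 (SE 1.44, adjusted p = 0.0118). The TPM call held with each library left out in turn (adjusted p from 0.000339 to 0.0375 by limma). After median-of-ratios scaling the call was lost when any library other than P0 replicate 1 was left out, with limma adjusted p-values of 0.0952 to 0.198. Its mean passed the filter of 1 TPM through the E14.5 libraries.

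miR-107-5p had 10, 22 and 15 reads at E14.5, or 3.61, 0.891 and 2.80 TPM. It had 14, 0 and 0 reads at P0, or 0.384, 0 and 0 TPM. The stages did not overlap, with P0 replicate 1 and E14.5 replicate 2 nearest to each other. In TPM it fell by 1.53 on the log2 scale (SE 0.53, adjusted p = 0.0436 by limma), whereas median-of-ratios scaling gave −1.10 and no call (adjusted p = 0.143 by limma). The TPM call was lost without E14.5 replicate 1, E14.5 replicate 3, P0 replicate 2 or P0 replicate 3 (adjusted p from 0.0978 to 0.152 by limma) and with a pseudocount of 0.1 (adjusted p = 0.0525). In the authors' deposited table it had −4.54 (SE 2.49) and was not called (adjusted p = 0.191). It too passed the filter through the E14.5 libraries. miR-103-1-5p was not analysed here.

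Set against its own guide strand, the 5p arm of Mir103-2 was a smaller share at P0. It made up 0.267% of the reads of both arms in E14.5 replicate 1 (95% Wilson interval 0.182 to 0.391), 0.168% in replicate 2 (0.147 to 0.192) and 0.227% in replicate 3 (0.167 to 0.309). In P0 replicate 1 it was 0.0445% (0.0345 to 0.0574), in replicate 2 it was 0 of 35454 reads, which allows up to 0.00846% by 3 reads and 0.0108% by the Wilson interval, and in replicate 3 it was 0.00756% (0.00257 to 0.0222). Each P0 value, that of P0 replicate 1 included, was below each E14.5 value, and the intervals of the stages did not overlap. The log2 ratio of guide to 5p arm, with 1 TPM added to each, was 1.85 higher at P0 (exact two-sided permutation test p = 0.1, the smallest possible, adjusted over the 4 tests 0.267). It was 1.90 higher without P0 replicate 1. The size rests on the pseudocount, since the P0 levels of the 5p arm are near or below 1 TPM, and with 0.1 TPM added the difference was 3.78. The comparison took 251 hairpins with both arms measured and a mean of at least 1 TPM for the less abundant arm. Of these, 16.7% had a ratio of the more to the less abundant arm that was higher at P0 without overlap. A larger increase than at Mir103-2 was seen in 31, both with 1 TPM added. The 5p arm of Mir103-2 passed this filter through the E14.5 libraries, so its place among the hairpins is only a description. The median change over these hairpins was −0.05.

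At Mir107 the depth did not settle the comparison. The 5p arm made up 0.543% of both arms in E14.5 replicate 1 (95% Wilson interval 0.295 to 0.998), 0.121% in replicate 2 (0.0802 to 0.184) and 0.629% in replicate 3 (0.381 to 1.03). It was 0.0764% in P0 replicate 1 (0.0455 to 0.128), and 0 of 2988 and 0 of 2940 reads in P0 replicates 2 and 3, which allow up to 0.1004% and 0.102% by 3 reads and 0.128% and 0.130% by the Wilson interval. The interval of E14.5 replicate 2 overlapped those of the P0 libraries. The log2 ratio of miR-107-3p to miR-107-5p with 1 TPM added differed by −0.02 (exact two-sided permutation test p = 1), and with 0.1 TPM added by 2.15 (exact two-sided permutation p = 0.1), so its direction rested on the pseudocount.

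**Figure D3:**
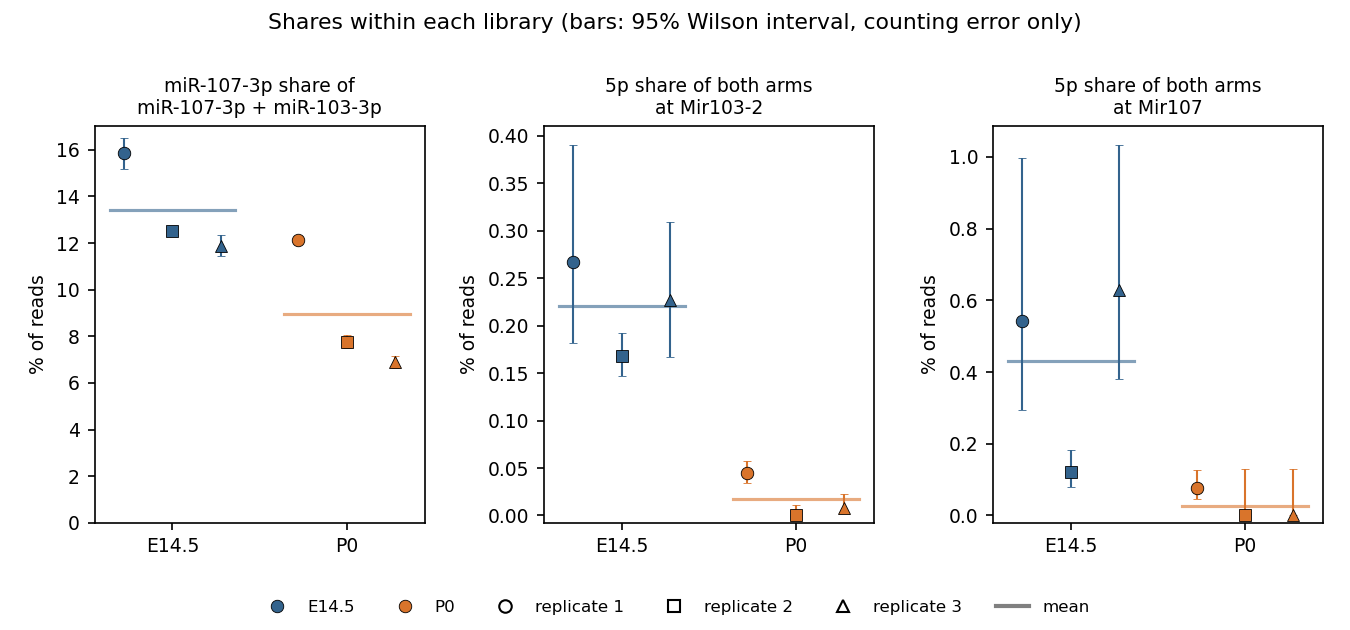
Percent of reads in each library for miR-107-3p among its own reads and those of the Mir103-2 row of miR-103-3p (left), and for the 5p arm among both arms at Mir103-2 (middle) and at Mir107 (right), with 95% Wilson intervals and the stage means as lines. The 5p share at Mir103-2 is at least 0.168% in the E14.5 libraries and at most 0.0445% in the P0 libraries, whereas P0 replicate 1 lies among the E14.5 values in the left panel.

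The 7 miRNAs with AGCAGC from base 2 were taken as a comparison group. Their seed is AGCAGCA, except for miR-503-5p, whose seed is AGCAGCG. Members of this miR-15 and miR-16 group are known for restraining the cell cycle. Their summed level came to 73461, 69679 and 53614 TPM for the E14.5 litters and 79227, 69896 and 74239 TPM for the P0 litters, most of it miR-16-5p. With 1 row per miRNA, the sum was 11.9 to 17.6 times that of miR-103-3p and miR-107-3p at E14.5, 19.1 times in P0 replicate 1, and 42.3 and 39.2 times in P0 replicates 2 and 3. With the rows of each name summed it was 10.4 to 15.1, 16.6, 34.1 and 31.5 times. miR-16-5p gave 58675, 59764 and 42969 TPM for the E14.5 litters and 69862, 67895 and 72304 TPM for the P0 litters, with every P0 value above every E14.5 value. miR-15b-5p, cut from the same transcript as a copy of miR-16, gave 2691, 2223 and 2224 TPM for the E14.5 litters and 1889, 237 and 214 TPM for the P0 litters, which is the pattern of a higher P0 replicate 1 seen for miR-107-3p. In TPM 3 of the 7 were called lower by limma (miR-15a-5p, miR-15b-5p and miR-322-5p) and 0 higher, beside 220 lower and 9 higher among all 670 tested (32.8% lower), and their median log2 fold change was −1.72 against −1.20. After median-of-ratios scaling 1 was called higher, miR-16-5p, and 0 lower, beside 38 higher and 35 lower of the 670, and the median was −0.43 against −0.17. Leaving out P0 replicate 1 gave 6 of the 7 called lower in TPM, beside 358 lower and 52 higher of the 670. Under median-of-ratios scaling it gave 4 lower and 1 higher, beside 174 lower and 150 higher of the 670. The calls were lost under both scalings, with 0 of 7 by limma, when any 1 of the other libraries was left out, with group medians from −1.86 to −1.34 in TPM and from −0.58 to −0.14 after scaling.

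let-7 miRNAs, which drive differentiation, also target Dicer1. Of 11 let-7 guide strands, 2 were called higher in TPM (let-7b-5p and let-7c-5p) and 1 lower (miR-98-5p), with a median log2 fold change of 0.56, beside 9 higher and 220 lower of the 670 tested. After median-of-ratios scaling 7 were called higher and 0 lower, with a median of 1.83, beside 38 higher and 35 lower of the 670. These 7 calls were lost when any 1 library other than P0 replicate 1 was left out, with 0 of 11 called by limma and medians of 1.67 to 1.93. Leaving out P0 replicate 1 gave 8 called higher and 2 lower under that scaling, and 4 higher and 3 lower in TPM, beside 150 higher and 174 lower, and 52 higher and 358 lower, of the 670. With any 1 of the other libraries left out, 1 of the 11 was called higher in TPM and 0 or 1 lower. miR-103-3p and miR-107-3p thus had values below the let-7 median under both scalings, and no test of that difference was made.

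Of 10 miRNAs known for roles in metabolism, 1 was called lower in TPM, the islet miRNA miR-375-3p, and 0 were called higher, with a median log2 fold change of −1.08, beside 32.8% of the 670 called lower and a median of −1.20. After median-of-ratios scaling 2 were called higher, 0 lower, and the median was 0.00, beside 38 higher and 35 lower of the 670 and a median of −0.17. With P0 replicate 1 left out, 5 of the 10 were called lower in TPM, beside 358 of the 670, and 3 higher and 1 lower under that scaling, beside 150 higher and 174 lower. With any 1 of the other libraries left out, 0 to 2 were called lower in TPM and, by limma, 0 were called under that scaling. The list medians then ran from −1.59 to −0.54 in TPM and from −0.28 to 0.59 after scaling. The 2 called higher after median-of-ratios scaling with all libraries were miR-29a-3p, which represses collagen genes, and miR-378a-3p, which is encoded in Ppargc1b. miR-33-5p, from an intron of the sterol regulator Srebf2 and so also intronic in a metabolic gene, was not called, at −1.61 in TPM (adjusted p = 0.0825 by limma) and −0.38 scaled by median of ratios (adjusted p = 0.696).

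**Figure D4:**
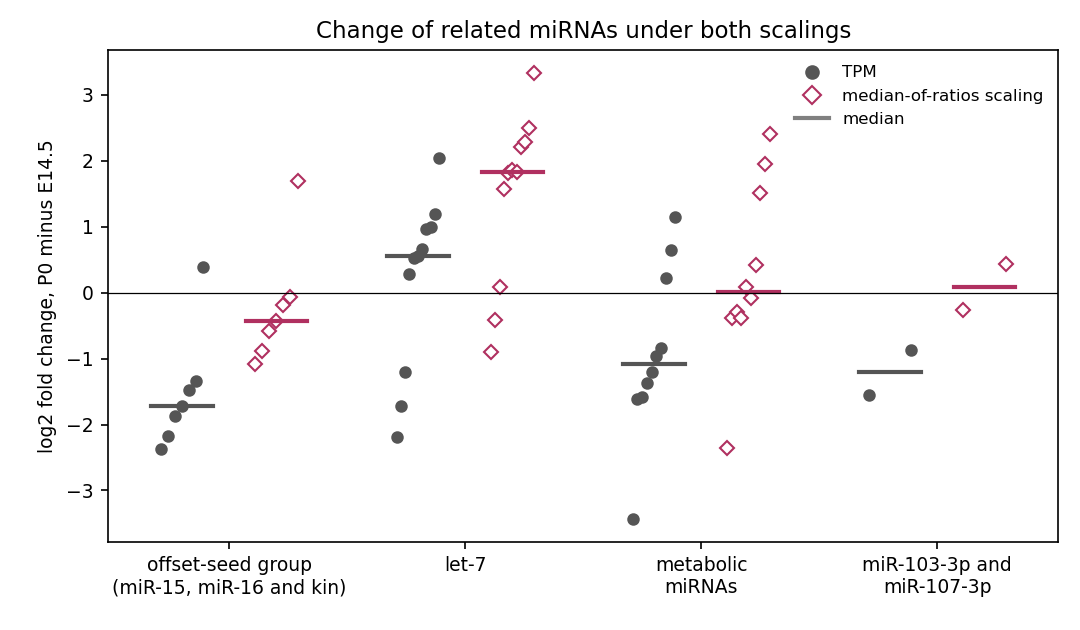
Log2 fold change (P0 minus E14.5) of each miRNA of the offset-seed group, the let-7 guide strands, the metabolic miRNAs and the members miR-103-3p and miR-107-3p, in TPM (filled circles) and after median-of-ratios scaling (open diamonds), with medians as lines. The medians of the first 3 groups are −1.72, 0.56 and −1.08 in TPM and −0.43, 1.83 and 0.00 after scaling.

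The likeness of other miRNAs was measured as the Pearson correlation of log2(TPM + 1) over the 6 libraries, among 431 other miRNAs whose mean reached 10 TPM. These points share libraries and the negative median change in TPM, so the values are a description. The 5 closest to miR-103-3p were miR-362-5p (r = 0.993), miR-93-3p (0.991), miR-218-1-3p (0.988), miR-10b-5p (0.981) and let-7c-1-3p (0.980). miR-107-3p ranked 8 in likeness to miR-103-3p, with r = 0.972. The 5 closest to miR-107-3p were miR-106b-3p (0.991), miR-361-5p (0.989), miR-148b-3p (0.982), miR-362-5p (0.981) and miR-669a-3p (0.981), and miR-103-3p ranked 17. With P0 replicate 1 left out, 3 of the 5 closest to miR-103-3p and 2 of the 5 closest to miR-107-3p were the same miRNAs, and r between the members was 0.970. As an example, miR-106b-3p gave 474, 507 and 356 TPM for the E14.5 litters and 298, 100.4 and 96.3 TPM for the P0 litters. After median-of-ratios scaling, miR-106b-3p, miR-361-5p and miR-362-5p kept their place among the 5 closest to miR-107-3p, and 0 of the 5 did so for miR-103-3p. Under that scaling the correlation between the members was 0.508, and miR-107-3p ranked 84 in likeness to miR-103-3p.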

How the data were processed

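Per the labels' protocols, single-end libraries were made from total RNA with a QIAseq miRNA kit. The submitters' processing notes name the build mm10, featureCounts and DESeq2 1.26.0. Trimming, aligner and the use of molecular tags are not given in the sources used here. The authors deposited TPM values per library. Multiplied by feature length (end less start), 100% of values were whole multiples of a step fixed per library (within 0.001), and these multiples were taken as reads. They also deposited, per the file headers, a baseMean signal, log2 fold changes and their standard errors, a test score, p-values and adjusted p-values, whose direction, P0 over E14.5, was read from the values. In a name with several rows the row with most reads was kept.

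limma 3.58.1 (R 4.3.3) was fitted with a mean-variance trend to log2(TPM + 1) of the 670 miRNAs whose mean reached 1 TPM, across all miRNAs, with stage as the only term and Benjamini-Hochberg adjustment, called under 0.05. It was also run on simulated counts with as many rises as falls and no library set apart. That run does not show how the calls behave in these libraries. Ratios and sums were compared by exact permutation over libraries, with 4 tests in the family. Median-of-ratios factors came from 589 rows present in every library. Alternatives were other scalings, filters, pseudocounts, summed rows, limma-voom, a replicate block and leaving out libraries. The named miRNAs were the members, their 5p arms, the listed groups and the 5 most alike by correlation. Members and lists were chosen with earlier results of these data known. P-values and the intervals of log2 fold changes measure the spread between these litter pools. Wilson intervals of shares and the floors cover counting error only. No sequencing batch or date was given.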

Additional observations from a re-analysis of the deposited data

How the results depend on the processing

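With 3 litter pools a stage, counts of calls moved with single libraries. In TPM 229 miRNAs were called, 410 without P0 replicate 1, 136 without P0 replicate 3, 114 without P0 replicate 2, 111 without E14.5 replicate 1 and 66 without E14.5 replicate 3 (9 higher, 1 to 52 with a library left out, and 220 lower, 65 to 358). Median-of-ratios scaling gave 73 calls (38 higher, 35 lower), 324 without P0 replicate 1, and 0 to 7 by limma without any 1 of the other libraries, where 136 to 198 were under 0.05 before adjustment. The calls numbered 58 under upper-quartile scaling (28 higher, 30 lower) and 28 by limma-voom with median-of-ratios factors (17 higher, 11 lower). limma-voom with library totals called 182 (4 higher, 178 lower). miR-103-3p turned to 0.43 under median-of-ratios and upper-quartile scaling and to 0.42 by limma-voom with median-of-ratios factors. With a library left out it ran from −1.25 to −0.62 in TPM and from 0.24 to 0.67 after median-of-ratios scaling. miR-107-3p ran from −2.20 to −1.22 and from −0.68 to −0.028, and was called in TPM without P0 replicate 1. miR-103-2-5p lost its call by limma-voom with median-of-ratios factors (−3.85, adjusted p = 0.112), and ran from −3.15 to −2.46 in TPM and from −2.53 to −1.78 after scaling. miR-107-5p lost its call at −1.10 under both other scalings, at −3.70 with a pseudocount of 0.1, at −4.62 by limma-voom and at −3.32 by limma-voom with median-of-ratios factors, and ran from −1.91 to −1.27 in TPM and from −1.40 to −0.86 after scaling. The causes were not tested. The log2 sum of the members turned to 0.36 under both other scalings and ran from −1.35 to −0.68 with a library left out. The log2 ratio of miR-107-3p to miR-107-5p turned to 2.15 with a pseudocount of 0.1 and ran from −0.52 to 0.50. The other ratios kept their direction with a library left out, from −0.95 to −0.51 for miR-107-3p to miR-103-3p and from 1.71 to 2.04 for miR-103-3p to miR-103-2-5p, which was 3.78 with a pseudocount of 0.1. A filter at 10 TPM gave no value for the 5p arms, whose few reads limit their precision.

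The replicate numbers were not taken to pair the samples in the main fit. Deviations of same-numbered libraries correlated at 0.193, 0.183 and 0.0423, and those of different-numbered libraries at −0.182 to 0.0770. These values do not exclude a pairing, so fits with a replicate block are given as well. The replicate block gave 247 calls in TPM (12 higher, 235 lower) and 77 after median-of-ratios scaling (41 higher, 36 lower). With the block the calls of the 4 arms were those of the fit without it, under each of these scalings. miR-103-3p with the block and median-of-ratios scaling was 0.43, miR-107-5p −1.10 and the log2 sum 0.36. The blocked log2 ratio of miR-107-3p to miR-103-3p was −0.69 (exact permutation p = 0.25, the smallest possible).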
